A study of Mus musculus with 16 samples.

Results

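A group of 10 genes that mark lipid-associated and scar-associated macrophages were followed through the whole livers of male mice, 3 days after a toxic or a surgical challenge. The genes were Trem2, Tyrobp, Gpnmb, Cd9, Cd63, Ctsd, Ctsb, Cd68, Lgals3 and Mmp12, which is 10 of the 54838 genes counted. They were chosen by name, and Gpnmb had been singled out because its measured level was high after CCl4 and not in the other groups of these same livers, so its levels are given as a description with no test. All mice were wild-type C57BL/6J males. The CCl4 group (n = 3) received 1 intraperitoneal injection of 2 µL per g body weight of an equal mixture of carbon tetrachloride, a hepatotoxin, and olive oil, and was sampled on day 3. The olive oil group (n = 3) received the same volume of the vehicle and was sampled on day 3. The PH day 3 group (n = 5) was sampled 3 days after partial hepatectomy, the surgical removal of part of the liver. The PH day 0 group (n = 5) was the tissue resected at surgery, which the labels call the baseline. The labels describe snap-frozen whole liver, and no sham-operated group was analysed here.

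Lipid-associated macrophages form around dying, lipid-laden cells in fatty tissue, in atherosclerotic plaque and in the scarred or fatty liver. TREM2 is a surface receptor for lipids and for debris of dead cells, it has no signalling tail of its own, and it signals through the adaptor TYROBP, also called DAP12. The cells that carry this programme take up and digest lipid and dead cells in lysosomes, and they express the glycoprotein GPNMB, tetraspanins, cathepsins, galectin-3 and, in mice, the elastase MMP12. None of the 10 genes is restricted to macrophages: Cd9, Cd63, Ctsb and Ctsd are expressed by many cell types, hepatocytes among them.

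The 4 promoter windows below are shown because they belong to the gene of highest fold difference after CCl4 (Gpnmb), to its nearest neighbour in profile (Mmp12), to a lysosomal protease whose fold differences were small (Ctsd), and to the gene with similar fold differences in both experiments (Cd9). The sequences are those of RefSeq on GRCm38.p6, 250 bases before and 30 bases from the start of the transcript onward, and 8 of the 10 genes matched an entry. Ctsb and Tyrobp had none. Capitals mark the AP-1 motif TGACTCA, searched on both strands and so also as TGAGTCA, and the E-box CACGTG, which reads the same on both strands. The motifs do not overlap each other in these windows.
Gpnmb, chr6:49036268-49036547, plus strand: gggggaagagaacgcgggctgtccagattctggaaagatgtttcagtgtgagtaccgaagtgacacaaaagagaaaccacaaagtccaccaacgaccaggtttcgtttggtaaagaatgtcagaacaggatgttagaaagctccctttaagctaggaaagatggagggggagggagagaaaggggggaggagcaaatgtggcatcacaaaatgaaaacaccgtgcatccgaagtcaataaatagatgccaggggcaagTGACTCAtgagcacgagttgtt
Mmp12, chr9:7347124-7347403, plus strand: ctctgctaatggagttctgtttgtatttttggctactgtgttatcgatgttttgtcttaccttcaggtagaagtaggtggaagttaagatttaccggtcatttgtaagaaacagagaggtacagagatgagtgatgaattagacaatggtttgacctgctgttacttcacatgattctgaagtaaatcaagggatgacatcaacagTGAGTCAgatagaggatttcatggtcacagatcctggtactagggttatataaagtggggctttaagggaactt
Ctsd, chr7:142387798-142388077, minus strand: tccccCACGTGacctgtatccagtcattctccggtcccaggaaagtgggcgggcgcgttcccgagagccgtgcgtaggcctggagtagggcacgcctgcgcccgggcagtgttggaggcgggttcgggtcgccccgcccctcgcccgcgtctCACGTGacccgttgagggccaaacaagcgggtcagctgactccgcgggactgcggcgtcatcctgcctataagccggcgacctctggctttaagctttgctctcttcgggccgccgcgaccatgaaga
Cd9, chr6:125494731-125495010, minus strand: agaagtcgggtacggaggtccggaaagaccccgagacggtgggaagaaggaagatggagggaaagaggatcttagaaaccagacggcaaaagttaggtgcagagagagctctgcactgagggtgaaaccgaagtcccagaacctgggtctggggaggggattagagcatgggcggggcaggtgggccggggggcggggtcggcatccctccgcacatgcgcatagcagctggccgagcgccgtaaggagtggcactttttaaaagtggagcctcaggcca
The AP-1 motif stood 9 bases after the start in Gpnmb, 44 bases before the start in the Mmp12 window shown, which is the second of 2 Mmp12 starts, and 149 and 24 bases before the start in Cd68. It was found in 4.94% of the 32851 windows of this length in the table. CACGTG stood 245 and 98 bases before the start of Ctsd and was found in 6.79% of all windows. Neither motif was in the Cd9, Trem2, Lgals3 or Cd63 windows, nor in the window of the first Mmp12 start, which is not shown. A match describes the letters of a window and is not a measured binding site.

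Sequencing depth ranged over the 16 libraries between 2795909 and 8647503 counted reads, with 4738196 to 6218526 in CCl4, 4295169 to 5221957 in olive oil, 2795909 to 4391002 in PH day 3 and 3271398 to 8647503 in PH day 0. Levels are CPM (read counts scaled to a common library total) scaled by TMM factors, which assume that most genes do not change. With scaling by library size instead, the median log2 fold change of all genes moved by 0.45 in CCl4 against olive oil and by 0.14 in PH day 3 against PH day 0, and the share of calls that were higher moved to 87.5% and 78.9%, against 49.2% and 54.8% with TMM. Changes are therefore read relative to the median gene. As a check of the tissue label, Alb averaged 74232 ± 6659 CPM in CCl4 and 73312 ± 5945 CPM in olive oil (SD, n = 3 each), and 92102 ± 7036 CPM in PH day 3 and 54765 ± 6476 CPM in PH day 0 (SD, n = 5 each). The injected and the operated livers were processed as separate experiments according to the paths in the file headers, so challenge and experiment cannot be told apart in any comparison of the responses. The labels do not say that each library came from a separate animal, and p-values measure the spread between these libraries.

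**Figure D1:**
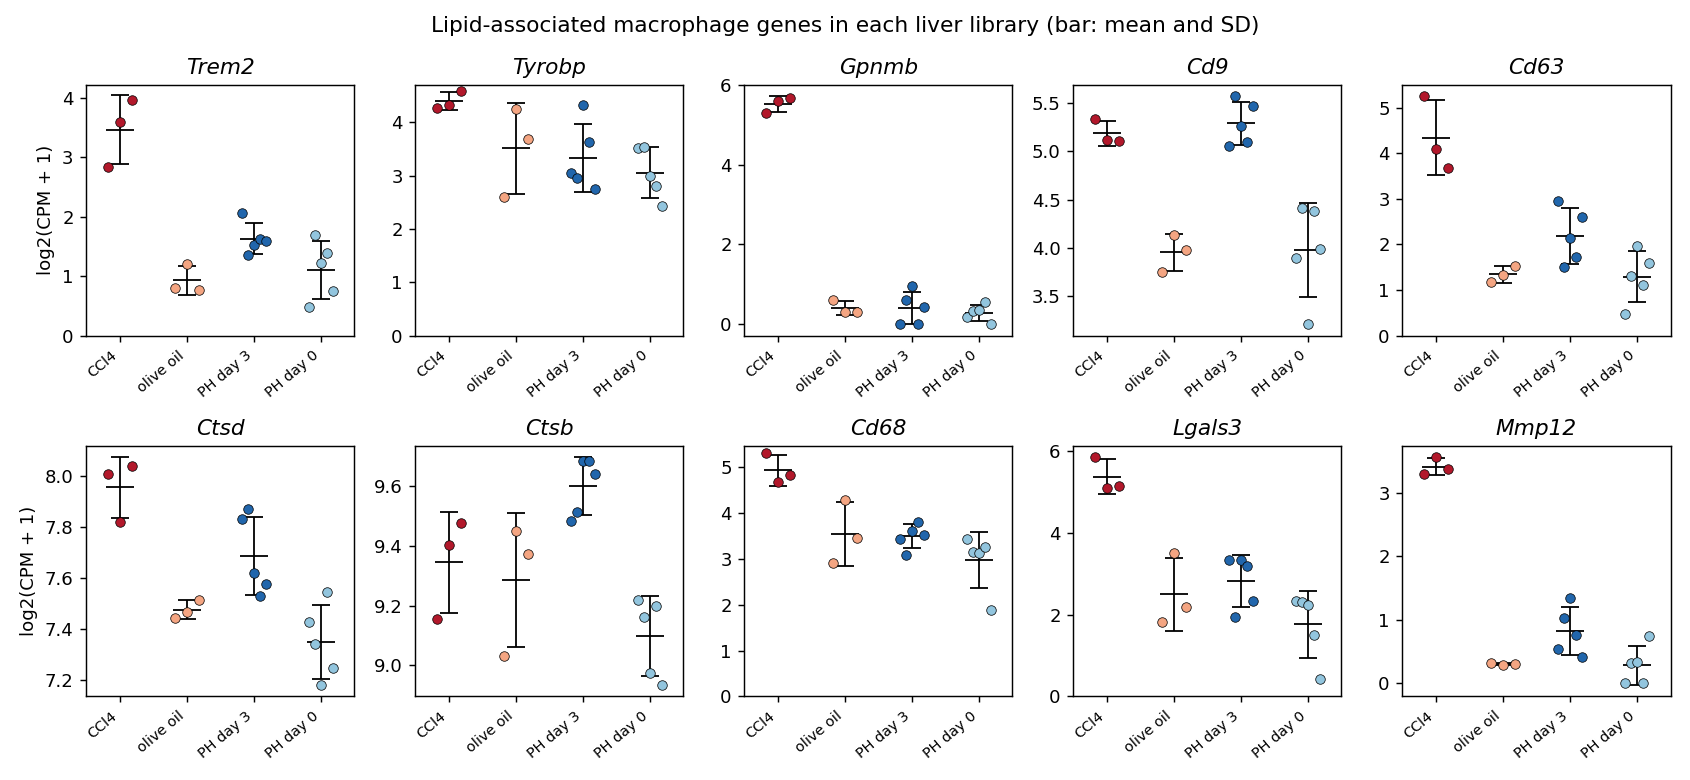
Levels of the 10 genes as log2(CPM + 1) in each of the 16 libraries, with the group mean and SD as bars and a separate vertical scale in each panel. Gpnmb lay between 38.1 and 49.9 CPM in the CCl4 livers and under 1 CPM in the 13 other libraries, whereas Cd9 was high in both the CCl4 and the PH day 3 livers.

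After CCl4, Gpnmb, the receptor gene Trem2, the tetraspanin gene Cd63 and the secreted products Mmp12 and Lgals3 stood far above the vehicle, Cd9, Cd68 and the adaptor gene Tyrobp differed less, and the lysosomal proteases differed least. With a Benjamini-Hochberg adjusted p under 0.05 in edgeR as the call, and Gpnmb left out, 6 of the other 9 genes were called higher and none lower, where 22.9% of the 11337 genes tested were called and 11.3% were called higher. The groups did not overlap in 9 of 10 genes, all but Ctsb, where 21.8% of all genes tested were higher without overlap. The median log2 fold change was 2.09 over the 10 genes and 0.01 over all genes. Nothing is read from these counts, because the choice of the genes used this contrast, and no p-value is given for the 10 genes in it.

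Trem2 was detected at 6.11, 11.0 and 14.6 CPM in the CCl4 livers, against 0.752, 1.31 and 0.707 CPM in the olive oil livers. Every CCl4 library was above every olive oil library, and the log2 fold change was 3.45 ± 0.48 (SE). The counts behind this were 207 reads against 12, a depth-scaled ratio of 11.7 with an exact 95% interval of 6.56 to 23.0 that covers counting error only. Tyrobp, the adaptor that TREM2 shares with other myeloid receptors, had 18.3, 19.0 and 23.1 CPM in CCl4 and 5.02, 18.1 and 11.8 CPM in olive oil. Its groups were separated by a small margin only, since olive oil replicate 2 came close to the lowest CCl4 liver. The log2 fold change of 0.75 ± 0.37 was not called. It was called with library-size scaling, with no filter and without olive oil replicate 2, where it was 1.22. Trem2 thus differed by more than its adaptor on the log2 scale, a contrast between the genes that was not itself tested.

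Gpnmb, a transmembrane glycoprotein of lysosomes and melanosomes, had 38.1, 47.1 and 49.9 CPM in CCl4, against 0.502, 0.218 and 0.236 CPM in olive oil. The olive oil values rest on 2, 1 and 1 reads, at or under the 3 counts taken as the floor of a library. All CCl4 livers lay far above that floor. The 865 reads against 4 gave a depth-scaled ratio of 147 (exact 95% interval 57.1 to 540), and the fitted log2 fold change was 7.04 ± 0.32, between 6.83 and 7.47 when single libraries were left out.

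Cd9 encodes a tetraspanin, a membrane-spanning scaffold protein. It had 39.4, 33.7 and 33.5 CPM in CCl4 and 12.5, 16.5 and 14.8 CPM in olive oil, a log2 fold change of 1.25 ± 0.18. The libraries within each group lay close together and the groups were apart. Cd63, the tetraspanin of late endosomes and lysosomes, had 37.3, 16.1 and 11.8 CPM in CCl4, against 1.25, 1.52 and 1.88 CPM in olive oil. Its log2 fold change was 3.75 ± 0.53, and 3.13 without CCl4 replicate 1, the liver with the highest value.

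The lysosomal proteases Ctsb and Ctsd had the highest CPM of the 10 genes and differed least. Ctsb, a cysteine protease, averaged 652 ± 74.0 CPM in CCl4, with 569 and 676 CPM in replicates 1 and 2 and the highest value in replicate 3, and 628 ± 93.4 CPM in olive oil (SD, n = 3 each), with 522, 699 and 662 CPM. The groups overlapped, and the log2 fold change was 0.03 ± 0.20. Ctsd, the aspartic protease of the lysosome, had 257, 225 and 262 CPM in CCl4 and 173, 176 and 182 CPM in olive oil. Its groups did not overlap, and the log2 fold change of 0.46 ± 0.15 was not called with TMM scaling. It was called by DESeq2, with RLE scaling and without CCl4 replicate 1, where it was 0.43. With library-size scaling Ctsd had a log2 fold change of 0.90 and was called, and Ctsb had 0.50, not called and close to the 0.45 by which that scaling moved the median gene. Cd68, a heavily glycosylated lysosomal membrane protein used as a macrophage marker, had 38.3, 24.4 and 27.2 CPM in CCl4, against 6.52, 18.5 and 9.89 CPM in olive oil. Its log2 fold change of 1.32 ± 0.35 was called, with values between 1.03 and 1.82 when single libraries were left out, and its call depended on CCl4 replicate 3 and on olive oil replicates 1 and 3, each of which ended it when left out.

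Of the secreted products, Lgals3 encodes galectin-3, a lectin that binds galactosides on damaged membranes and on the cell surface. It had 56.9, 33.0 and 34.6 CPM in CCl4, against 2.51, 10.4 and 3.53 CPM in olive oil, and the log2 fold change was 2.85 ± 0.50. Olive oil replicate 2 was the highest of the vehicle livers, as it was for Trem2, Cd9, Cd68 and Tyrobp. Mmp12, the macrophage elastase, had 8.84, 10.8 and 9.35 CPM in CCl4, against 0.251, 0.218 and 0.236 CPM in olive oil. Each olive oil library held 1 read of it. The 186 reads against 3 gave a depth-scaled ratio of 42.1 (exact 95% interval 14.2 to 206), and the fitted log2 fold change was 5.21 ± 0.48.

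After partial hepatectomy Cd9, the proteases Ctsb and Ctsd and Lgals3 were higher. The rule had read this contrast for Gpnmb alone, so the other 9 genes were tested where their counts allowed. These 4 genes rose, 4 of those 9, where 17.7% of the 10546 genes tested were called, 9.73% as higher and 8.01% as lower. Only 6 of the 10 genes passed the filter on low counts; Gpnmb, Trem2, Mmp12 and Cd63 did not. Groups were apart for Cd9 and Ctsb, 2 of the 10 genes, where 6.50% of all genes tested were higher without overlap.

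Cd9 had 32.2, 46.4, 37.3, 33.1 and 43.2 CPM in PH day 3 (replicates 12 to 16), against 13.9, 20.3, 8.26, 19.9 and 14.9 CPM in PH day 0. The lowest day 3 liver was above the highest day 0 liver. The log2 fold change was 1.33 ± 0.19 with an adjusted p of 2.3e-05, and the call held with each library left out. Ctsb had 714, 730, 821, 822 and 798 CPM in PH day 3, against 595, 572, 502, 587 and 488 CPM in PH day 0, a log2 fold change of 0.52 ± 0.09 (adjusted p = 1.6e-04). It, too, kept its call with each library left out. Ctsd had 227, 233, 196, 184 and 190 CPM in PH day 3, against 171, 161, 144, 186 and 151 CPM in PH day 0. The highest day 0 liver reached into the day 3 range, and the log2 fold change was 0.36 ± 0.09 (adjusted p = 0.0083). The rises of both cathepsins were thus small in size and, for Ctsb, larger than the spread in either group.

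Lgals3 had 9.06, 2.85, 9.01, 8.05 and 4.05 CPM in PH day 3, against 4.00, 3.95, 3.73, 1.85 and 0.339 CPM in PH day 0. The groups overlapped through day 3 replicate 13, which was below 3 of the day 0 livers. The log2 fold change was 1.21 ± 0.42 (adjusted p = 0.048), and between 0.98 and 1.40 with single libraries left out. Its call was lost without day 0 replicate 13, 14, 15 or 16 and without day 3 replicate 12, 14 or 15, and the adjusted p over all alternatives ran between 0.012 and 0.12. Cd68 had 9.74, 7.52, 11.2, 12.9 and 10.5 CPM in PH day 3 and 9.86, 7.91, 7.73, 8.58 and 2.71 CPM in PH day 0, a log2 fold change of 0.48 ± 0.26 that did not pass (adjusted p = 0.24). Tyrobp had 7.25, 6.75, 19.0, 11.3 and 5.73 CPM in PH day 3 and 10.4, 10.6, 6.93, 6.03 and 4.40 CPM in PH day 0, with a log2 fold change of 0.36 ± 0.32 (adjusted p = 0.49). The day 3 and day 0 livers overlapped widely in both genes.

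The 4 genes under the filter had few reads in the operated livers. Gpnmb was at 0, 0.519, 0.932, 0 and 0.337 CPM in PH day 3, from 6 reads in all, against 0.133, 0.247, 0.266, 0.464 and 0 CPM in PH day 0, from 5 reads. The depth-scaled ratio was 1.44 (exact 95% interval 0.366 to 5.97), given as a description because the rule had read this contrast for Gpnmb. Mmp12 rested on 15 reads in PH day 3 against 4 in PH day 0, a ratio of 4.50 (exact 95% interval 1.43 to 18.6), and the ranges were 0.337 to 1.55 CPM in PH day 3 and 0 to 0.678 CPM in PH day 0. Trem2 ranged from 1.56 to 3.17 CPM in PH day 3 and from 0.400 to 2.22 CPM in PH day 0, with 41 reads against 26, a ratio of 1.89 (exact 95% interval 1.13 to 3.22). Cd63 ranged from 1.82 to 6.79 CPM in PH day 3 and from 0.400 to 2.93 CPM in PH day 0, with 73 reads against 31, a ratio of 2.83 (exact 95% interval 1.83 to 4.45). These intervals cover counting error only. The ranges overlapped in all 4 genes. Fitted without the filter, Trem2 had a log2 fold change of 0.79 ± 0.61 (adjusted p = 0.45), Mmp12 had 1.84 ± 1.13 (adjusted p = 0.31) and Cd63 had 1.34 ± 0.50 (adjusted p = 0.056), and none of these passed.

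**Figure D2:**
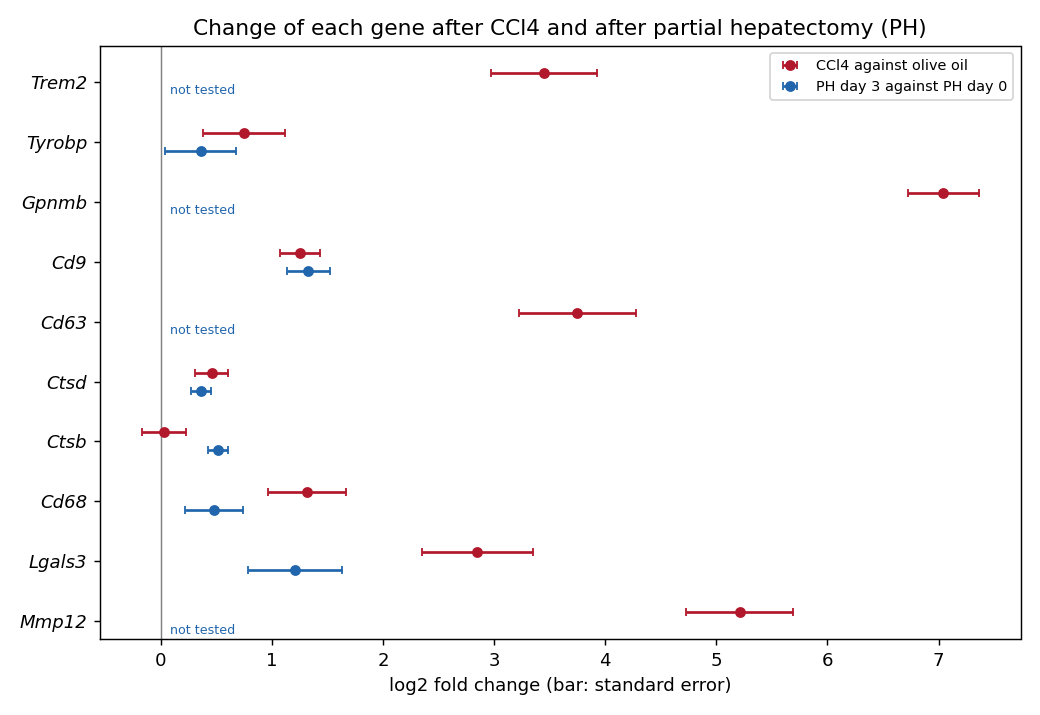
Log2 fold change with its standard error for each of the 10 genes in CCl4 against olive oil (red) and in PH day 3 against PH day 0 (blue), with genes under the count filter marked as not tested. Gpnmb stood at 7.04 after CCl4, Cd9 stood at 1.25 after CCl4 and 1.33 after surgery, and Ctsb stood at 0.03 and 0.52.

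The response to CCl4 minus the response to surgery was estimated in a fit of all 16 libraries. It was 6.55 ± 1.20 on the log2 scale for Gpnmb, 3.23 ± 1.27 for Mmp12, 2.64 ± 0.72 for Trem2, 2.37 ± 0.77 for Cd63 and 1.69 ± 0.72 for Lgals3. It was 0.88 ± 0.43 for Cd68, 0.42 ± 0.54 for Tyrobp, 0.13 ± 0.16 for Ctsd, −0.05 ± 0.29 for Cd9 and −0.46 ± 0.18 for Ctsb. With Gpnmb left out, Trem2 was called, 1 of the other 9, where 5.33% of the 11868 genes tested were called, 1.47% as higher and 3.87% as lower. The difference holds the contrast by which Gpnmb was noted, so the count is a description only. Trem2 lost its call when any of these was left out: olive oil replicate 1 or 3, CCl4 replicate 2 or 3, PH day 0 replicate 13, 14 or 15, or PH day 3 replicate 13. Its difference lay between 2.31 and 2.98 over the libraries left out. Cd63 gained a call with DESeq2, with library-size scaling, with no filter and without CCl4 replicate 3, PH day 0 replicate 12 or PH day 3 replicate 12, with a difference between 1.75 and 2.72 over the libraries left out. Lgals3 gained one without olive oil replicate 2, and Ctsb with DESeq2. The sign for Cd9 turned with library-size scaling, where the difference was 0.22.

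Compared between genes per transcript length, as TPM (length-scaled transcript shares), Ctsb and Ctsd led in every group and the order below them varied. Ctsb averaged 323 ± 87.1 TPM in CCl4, 185 ± 20.5 TPM in olive oil, 320 ± 10.1 TPM in PH day 3 and 172 ± 22.9 TPM in PH day 0, the highest of the 10 genes in each group, and Ctsd was next in each. In CCl4 the level of Ctsd, 311 ± 51.2 TPM, lay within the spread of Ctsb. Gpnmb averaged 20.8 ± 6.02 TPM in CCl4 and ranked 7 of the 10, against 0.0896 ± 0.0511 TPM in olive oil, where it ranked 9. Mmp12 was the lowest in CCl4 at 3.98 ± 1.00 TPM and in olive oil at 0.0583 ± 0.00739 TPM. In PH day 3 Gpnmb was the lowest at 0.134 ± 0.144 TPM and Mmp12 was next above it at 0.277 ± 0.159 TPM, and in PH day 0 Gpnmb ranked 9 at 0.0677 ± 0.0546 TPM and Mmp12 ranked 10 at 0.0609 ± 0.0667 TPM, with overlapping spreads in both groups. Cd9 ranked 3 in PH day 3 at 47.0 ± 8.04 TPM, ahead of Tyrobp at 36.8 ± 18.4 TPM with overlapping spreads, and it ranked 4 in PH day 0 at 14.4 ± 5.26 TPM. TPM is scaled to the library total and not by TMM, and is used here to order genes within a group.

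Over the groups, the order of mean CPM put CCl4 first for 8 of the 10 genes. In 7 of those 8 the CCl4 livers did not overlap the group next below, although 1 PH day 3 liver reached into the CCl4 range of Tyrobp. For Ctsd they overlapped PH day 3. PH day 3 was first for Cd9 and Ctsb. Its range overlapped that of CCl4 for Cd9 and lay above it for Ctsb, although these groups come from separate experiments. Olive oil and PH day 0, the groups with neither injury, overlapped in all 10 genes. These counts are descriptions, because the choice of the genes used the CCl4 contrast. Against olive oil alone, 21.8% of all genes tested were higher in CCl4 without overlap. No share over all genes is given for the other orders.

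The level of macrophage markers varied between the livers, and the sums overlapped between the groups of each experiment. In bulk tissue a higher or lower level can come from more or fewer cells of a type or from more or less RNA per cell, and these cannot be told apart. The summed level of 15 general macrophage markers was 552 to 713 CPM in CCl4, 198 to 557 CPM in olive oil, 368 to 493 CPM in PH day 3 and 290 to 427 CPM in PH day 0. None of the 15 was at 0 in any group. In CCl4, 3 of 14 tested markers rose and none fell, where 11.3% of all genes tested were called higher. They were Fcer1g (log2 fold change 0.90 ± 0.25, adjusted p = 0.026), Lyz2 (1.37 ± 0.37, adjusted p = 0.039) and Aif1 (1.15 ± 0.36, adjusted p = 0.045). Each of these 3 calls was lost when one of several single libraries was left out, with adjusted p up to 0.091, 0.12 and 0.14. Adgre1, which encodes F4/80, averaged 16.7 ± 7.22 CPM in CCl4 and 9.57 ± 2.91 CPM in olive oil (adjusted p = 0.13), and Csf1r, the receptor for the macrophage growth factor CSF1, averaged 46.6 ± 13.6 CPM and 47.4 ± 26.1 CPM in those groups (adjusted p = 0.95). After surgery 1 of 12 tested markers rose, where 9.73% of all genes tested were called higher. It was Mpeg1 at 0.79 ± 0.23 (adjusted p = 0.040), and its call was lost without any of 7 single libraries.

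Of 10 markers of resident Kupffer cells tested after CCl4, none rose and 3 fell: C6 (log2 fold change −1.37 ± 0.23, adjusted p = 0.0024), Timd4, the phosphatidylserine receptor of resident macrophages (−1.77 ± 0.36, adjusted p = 0.0061), and Nr1h3, which encodes LXR alpha (−0.57 ± 0.12, adjusted p = 0.0089). All 3 calls held with each library left out, and that of Nr1h3 was lost with library-size scaling (adjusted p = 0.64). Of all genes tested, 11.3% were called higher and 11.6% lower after CCl4, and 9.73% and 8.01% after surgery. Clec4f averaged 53.2 ± 30.1 CPM in CCl4 and 95.7 ± 42.5 CPM in olive oil (adjusted p = 0.30), Vsig4 averaged 18.5 ± 6.22 CPM and 29.0 ± 12.4 CPM (adjusted p = 0.21), and Cd5l averaged 110 ± 53.7 CPM and 94.8 ± 54.2 CPM (adjusted p = 0.86). Marco, a scavenger receptor, averaged 54.1 ± 25.7 CPM in CCl4 and 13.7 ± 11.6 CPM in olive oil without overlap, and its log2 fold change of 1.93 ± 0.86 did not pass (adjusted p = 0.19). The summed Kupffer cell markers were 465 to 769 CPM in CCl4 and 695 to 1128 CPM in olive oil. After surgery C6 fell (−0.74 ± 0.10, adjusted p = 7.5e-06), Slc40a1, the iron exporter, fell (−0.49 ± 0.14, adjusted p = 0.026, lost in 6 of the 10 leave-outs), and Marco rose (3.08 ± 0.40, adjusted p = 7.6e-04), with sums of 652 to 801 CPM in PH day 3 and 842 to 949 CPM in PH day 0.

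Of 10 monocyte markers 6 were tested after CCl4, and 2 rose, Ccr2 and F13a1, and none fell. Of all genes tested, 11.3% were called higher and 11.6% lower. The sum over the 10 genes was higher in every CCl4 liver than in any vehicle liver, at 57.2 to 112 CPM in CCl4 and 6.02 to 21.8 CPM in olive oil, where 3 of the 10 were at 0 in every library, Ly6c2 and F13a1 among them. Ccr2, the chemokine receptor of inflammatory monocytes, averaged 12.3 ± 5.09 CPM in CCl4 and 0.609 ± 0.321 CPM in olive oil (log2 fold change 4.24 ± 0.53, adjusted p = 4.8e-04). F13a1 averaged 7.44 ± 3.63 CPM from 129 reads in CCl4, against no read in olive oil, and rose (adjusted p = 0.0014). Ccr2 and F13a1 passed the filter through the CCl4 livers alone, so they could only be called higher. Ly6c2 averaged 1.66 ± 0.795 CPM in CCl4 and had no read in olive oil, and it did not reach the filter. After surgery the sum was 14.3 to 29.2 CPM in PH day 3 and 6.39 to 17.8 CPM in PH day 0, and Plac8 rose (1.00 ± 0.29, adjusted p = 0.018), a call lost without day 0 replicate 14 or day 3 replicate 12. The part of these cell populations in the levels of Trem2, Gpnmb and the other genes was not tested.

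Among markers of other cell types, those of stellate cells and myofibroblasts had calls. So did markers of endothelial cells, hepatocytes and platelets, which are given under the other observations. None of 3 neutrophil markers tested after CCl4 passed in edgeR or DESeq2, with 0 at an unadjusted p under 0.05. Neutrophil markers summed to 7.68 to 69.9 CPM in CCl4, highest in replicate 1, and to 1.00 to 19.4 CPM in olive oil, and S100a8 averaged 7.89 ± 11.0 CPM in CCl4 and 1.34 ± 1.42 CPM in olive oil (adjusted p = 0.39). CCl4 replicate 1 was also the liver with the highest Cd63, Lgals3, Cd68 and Cd9 among the CCl4 livers. The same liver was the lowest of them for Gpnmb, Trem2, Mmp12, Tyrobp and Ctsb, and lay between the others for Ctsd. Stellate cell and myofibroblast markers summed to 354 to 908 CPM in CCl4 and 121 to 164 CPM in olive oil, and to 227 to 715 CPM in PH day 3 and 123 to 253 CPM in PH day 0. In this list 6 of 9 rose after CCl4 and 3 of 8 after surgery, where 11.3% and 9.73% of all genes tested were called higher. Col1a1 was among them at 3.84 ± 0.35 (adjusted p = 3.9e-04) after CCl4 and 2.76 ± 0.66 (adjusted p = 0.021) after surgery. After surgery the call of Col1a1 was lost without day 0 replicate 12, 15 or 16, and with the replicate number as a block. None of the 3 genes that rose after surgery was called in every leave-out. Dendritic cell markers ranged from 5.45 to 7.88 CPM in CCl4 and 4.13 to 9.89 CPM in olive oil, and Itgax, the integrin CD11c, averaged 2.26 ± 0.980 CPM in CCl4 and 0.380 ± 0.237 CPM in olive oil, under the filter. Lymphocyte markers summed to at most 3.92 CPM in any library. The part of these cells in the results was not tested.

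**Figure D3:**
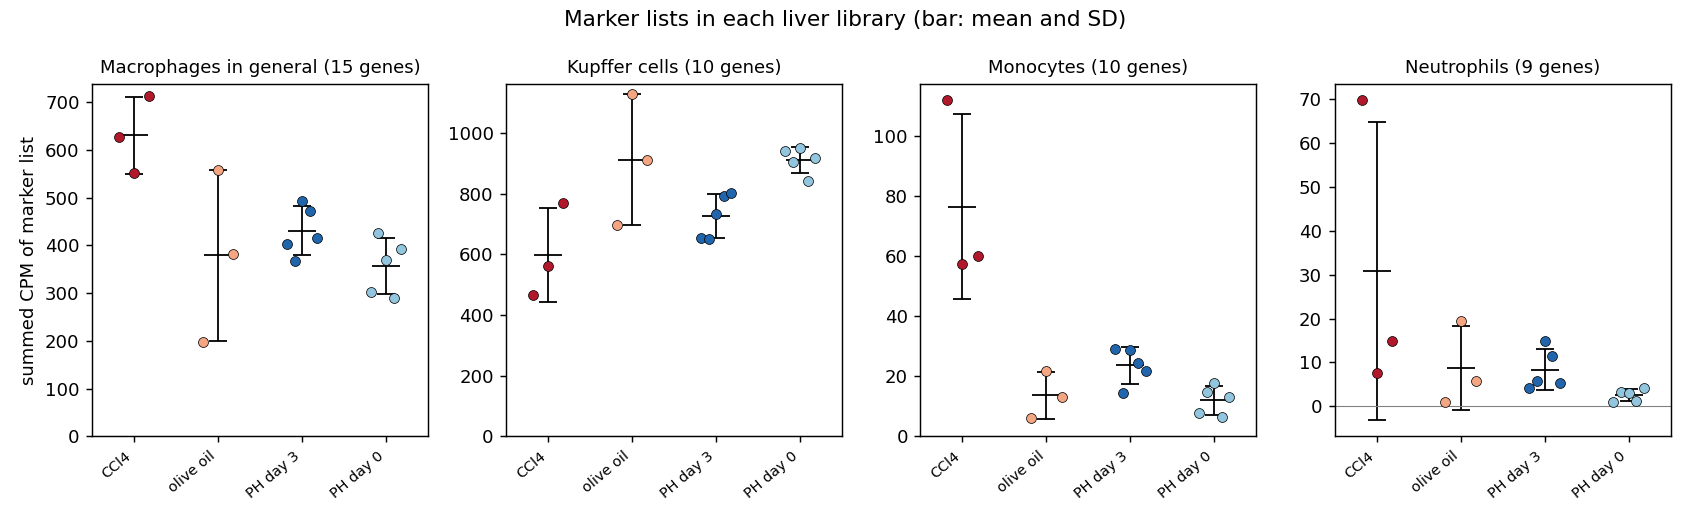
Summed CPM of 4 marker lists in each of the 16 libraries, with the group mean and SD as bars. General macrophage markers overlap between CCl4 (552 to 713) and olive oil (198 to 557), Kupffer cell markers lie lower in CCl4 with an overlap, and monocyte markers lie apart (57.2 to 112 in CCl4, 6.02 to 21.8 in olive oil).

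Set against the macrophage marker sum of the same liver, the 10 genes separated. Tyrobp stood at 2.93% to 3.43% of that sum in CCl4 and 2.54% to 3.24% in olive oil, a ratio of group means of 1.08 with overlap, compared with 1.73 for its CPM. The low Tyrobp level of olive oil replicate 1 and the high one of replicate 2 went with sums of 198 and 557 CPM. Cd9 had a ratio of 1.29 with overlap. Cd68 stayed apart at 3.82% to 6.12% in CCl4 and 2.59% to 3.32% in olive oil, a ratio of 1.56. In 5 further genes the CCl4 livers also stayed above the olive oil livers, with ratios of 60.9 for Gpnmb, 20.5 for Mmp12, 7.51 for Cd63, 6.27 for Trem2 and 4.89 for Lgals3. Ctsb was lower per macrophage sum, at 90.9% to 122% in CCl4 and 125% to 264% in olive oil. After surgery Cd9 alone of the 10 genes was apart, at 7.02% to 12.6% of the sum in PH day 3 and 2.85% to 5.48% in PH day 0, a ratio of 2.11. The sum holds genes that changed themselves, and hepatocytes contribute to several of the 10, so these ratios are descriptions of RNA pools and not of single cells. No share over all genes is given for these ratios, and the choice of the genes used the CCl4 contrast.

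Some other genes of the lipid-associated macrophage programme rose in each experiment, and 4 of them rose in both. The cell types behind their levels were not tested. Of the 30 listed, 26 were tested after CCl4, and 7 rose and none fell (11.3% of all genes were called higher). After surgery 24 were tested, and 9 rose and none fell (9.73% of all genes were called higher). The median log2 fold change was 0.57 after CCl4 and 0.27 after surgery, beside 0.01 and −0.01 over all genes. The list was drawn up with results of these livers known and is not independent evidence of its direction. Anxa5, a phospholipid-binding annexin, averaged 160 ± 8.23 CPM in CCl4 and 50.3 ± 10.1 CPM in olive oil (1.64 ± 0.17, adjusted p = 1.7e-04), and 185 ± 41.5 CPM in PH day 3 and 83.3 ± 2.97 CPM in PH day 0 (1.17 ± 0.13, adjusted p = 1.7e-06). Cd36, a fatty acid and lipoprotein receptor, rose by 1.22 ± 0.25 after CCl4 (adjusted p = 0.0059) and by 1.45 ± 0.20 after surgery (adjusted p = 3.8e-05). Atp6v0d2, a macrophage and osteoclast subunit of the lysosomal proton pump, averaged 5.71 ± 1.31 CPM in CCl4 and 1.50 ± 1.19 CPM in olive oil, and 8.36 ± 2.70 CPM in PH day 3 and 1.09 ± 0.425 CPM in PH day 0. It rose by 1.85 ± 0.58 after CCl4 (adjusted p = 0.042), a call that ended when olive oil replicate 1 or 3 or CCl4 replicate 2 or 3 was left out (log2 fold change 1.37 to 2.5), and by 2.96 ± 0.38 after surgery (adjusted p = 4.0e-06). Lipa, the lysosomal acid lipase, rose by 0.48 ± 0.15 (adjusted p = 0.046, lost without any of 5 single libraries) and by 0.53 ± 0.09 (adjusted p = 1.6e-04). These 4 genes rose in both, 4 of the 7 and 4 of the 9.

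The other genes of this list that rose after CCl4 were Cstb, a cathepsin inhibitor (0.99 ± 0.17, adjusted p = 0.0028), Capg, an actin-capping protein (2.48 ± 0.52, adjusted p = 0.0069), and Spp1, which encodes osteopontin (1.71 ± 0.35, adjusted p = 0.013). Spp1 averaged 220 ± 63.4 CPM in CCl4 and 65.6 ± 30.6 CPM in olive oil, and 168 ± 46.8 CPM in PH day 3 and 109 ± 40.2 CPM in PH day 0, where its log2 fold change of 0.65 ± 0.29 did not pass (adjusted p = 0.18). With the replicate number as a block, a pairing that the labels do not state, Spp1 was called after surgery (edgeR adjusted p = 3.2e-05). Lpl, lipoprotein lipase, averaged 70.5 ± 23.1 CPM in CCl4 and 17.7 ± 12.5 CPM in olive oil (1.96 ± 0.55, adjusted p = 0.056), and 95.2 ± 41.5 CPM in PH day 3 and 25.6 ± 6.78 CPM in PH day 0 (1.95 ± 0.31, adjusted p = 0.0028). It was called after CCl4 without olive oil replicate 2, and the others that rose after surgery were Vat1, Lgmn, Ccl6 and Ctsl, named after their values were seen. Fabp5, a fatty acid carrier, had 0.05 ± 0.44 (adjusted p = 0.95) after CCl4 and −0.44 ± 0.32 (adjusted p = 0.41) after surgery. None of the 26 genes passed in the difference of the responses in edgeR, with 6 at an unadjusted p under 0.05, and DESeq2 called 2.

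**Figure D4:**
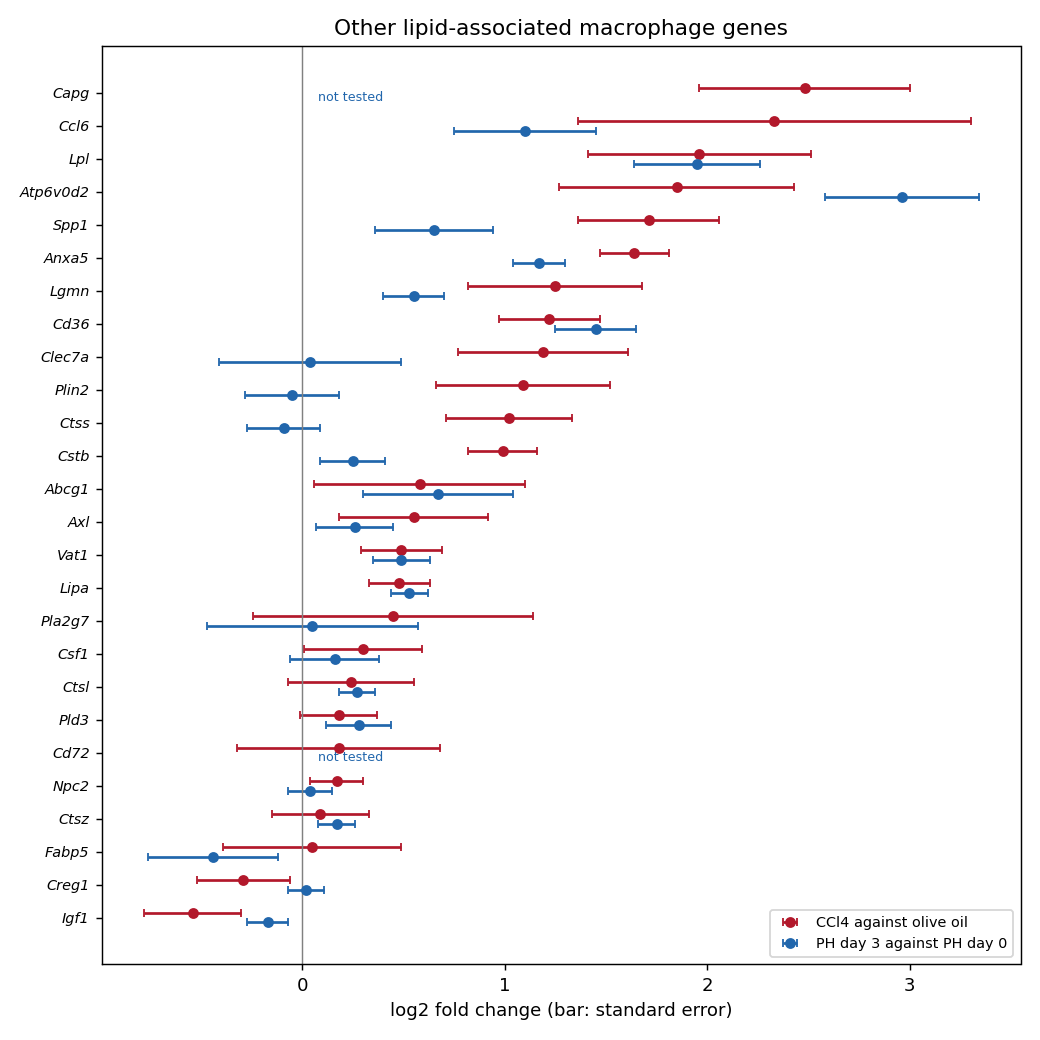
Log2 fold change with its standard error of the other lipid-associated macrophage genes that were tested in either experiment, in CCl4 against olive oil (red) and PH day 3 against PH day 0 (blue), ordered by the first. Capg (2.48) leads the calls after CCl4 and Atp6v0d2 (2.96) those after surgery, and Anxa5, Cd36 and Lipa lie right of 0 in both.

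Of the 18 genes of TREM2 and TYROBP signalling, 12 were tested after CCl4, and 6 rose and 1 fell. Of all genes tested, 11.3% were called higher and 11.6% lower. Cd300lb, a myeloid receptor that also pairs with TYROBP, averaged 3.01 ± 0.886 CPM in CCl4 and 0.145 ± 0.251 CPM in olive oil, from 55 reads against 2 (4.05 ± 0.88, adjusted p = 0.0086). Cd300lb passed the filter through the CCl4 livers alone, so it could only be called higher. Pik3r5, a regulatory subunit of phosphoinositide 3-kinase gamma, rose by 2.55 ± 0.64 (adjusted p = 0.017). Adam17 and Adam10, proteases that shed TREM2 from the cell surface, rose by 0.69 ± 0.18 (adjusted p = 0.019) and by 0.51 ± 0.16 (adjusted p = 0.043), and Syk, the kinase that TYROBP recruits, rose by 0.96 ± 0.31 (adjusted p = 0.049). Ptpn6, a phosphatase, fell (−0.60 ± 0.19, adjusted p = 0.044), and Inpp5d rose by 1.40 ± 0.44 (adjusted p = 0.044). Both were named after their values were seen. Cd300lb alone of the 7 was called with each of the 6 libraries left out. Plcg2, the phospholipase downstream of SYK, had 0.35 ± 0.70 (adjusted p = 0.76). After surgery 8 were tested and 1 rose, Adam10 at 0.51 ± 0.16 (adjusted p = 0.031), a call lost in 6 of the 10 leave-outs. In that comparison 9.73% of all genes tested were called higher.

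Lysosomal genes beyond the 3 of the main list moved in both directions after CCl4. Of 34 tested, 5 rose and 5 fell, where 11.3% of all genes were called higher and 11.6% lower, and the median was −0.07. Galns, a sulfatase of keratan sulfate breakdown, rose by 0.86 ± 0.19 (adjusted p = 0.0091), Hexa, a subunit of hexosaminidase, by 0.63 ± 0.14 (adjusted p = 0.011), and Gusb, the glucuronidase, by 0.76 ± 0.18 (adjusted p = 0.014). Npc1, the lysosomal cholesterol exporter, fell (−0.56 ± 0.14, adjusted p = 0.016). Psap also rose, and Man2b1, Neu1 and Atp6v0d1 also fell; of these, Psap and Atp6v0d1 were named after their values were seen. The count of 10 calls rested on single libraries: leaving out CCl4 replicate 1 gave 18, leaving out the second or the third CCl4 liver gave 3 or 6, and leaving out an olive oil liver gave 2 (replicate 1), 4 (replicate 2) or 2 (replicate 3), and Galns alone was called in every one of these. With library-size scaling 12 rose and none fell. After surgery 7 of 34 rose and 1 fell, with 9 rising and none falling under library-size scaling. In that comparison 9.73% of all genes tested were called higher and 8.01% lower with TMM. Hexa rose by 0.59 ± 0.12 (adjusted p = 9.4e-04), Arsb, another sulfatase, by 0.60 ± 0.13 (adjusted p = 0.0019) and Galns by 0.67 ± 0.17 (adjusted p = 0.0066), and Man2b1, a mannosidase, fell (−0.40 ± 0.09, adjusted p = 0.0029). Galns, Gusb, Hexa and Psap rose in both, 4 of the 5 and 4 of the 7. Lamp1, an abundant lysosomal membrane protein, had −0.34 ± 0.18 after CCl4 (adjusted p = 0.21) and 0.07 ± 0.08 after surgery (adjusted p = 0.65).

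The MiT/TFE transcription factors drive lysosomal genes and Gpnmb in macrophages, and folliculin and its partners hold them in the cytoplasm. Of 9 genes of this control tested after CCl4, 1 rose and 4 fell, where 11.3% of all genes tested were called higher and 11.6% lower. Flcn, which encodes folliculin, fell (−1.55 ± 0.17, adjusted p = 2.3e-04), as did its partner Fnip1 (−0.96 ± 0.17, adjusted p = 0.0030), the lysosomal calcium channel Mcoln1 (−0.86 ± 0.17, adjusted p = 0.0051) and Mtor (−0.48 ± 0.16, adjusted p = 0.048), and Tfe3 rose by 0.57 ± 0.18 (adjusted p = 0.047). The calls of Mtor and Tfe3 were each lost in 4 or more of the 6 leave-outs. With library-size scaling 1 rose and 1 fell; Fnip1, Mcoln1 and Mtor lost their calls. Mitf had −0.14 ± 0.40 (adjusted p = 0.83), and Tfec did not reach the filter, at 1.37 ± 0.470 CPM in CCl4 and 0.538 ± 0.596 CPM in olive oil. After surgery Mcoln1 alone of 8 passed, and fell (−0.49 ± 0.14, adjusted p = 0.018), a call lost without day 0 replicate 12. In that comparison 8.01% of all genes tested were called lower.

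The relatives of the 10 genes did not move as one. Of all genes tested, 11.3% were called higher and 11.6% lower after CCl4, and 9.73% and 8.01% after surgery. Of 14 other tetraspanins tested after CCl4, Cd53, a leukocyte tetraspanin, rose by 1.59 ± 0.38 (adjusted p = 0.014), Tspan3 rose by 1.36 ± 0.43 (adjusted p = 0.046), and Tspan12 fell (−1.07 ± 0.14, adjusted p = 5.8e-04); Cd53 was not called when olive oil replicate 3 or CCl4 replicate 3 was left out, nor Tspan3 without any of 5 single libraries. After surgery, of 13 tested, Tspan4 rose by 0.90 ± 0.15 (adjusted p = 1.3e-04), Cd151 rose by 0.35 ± 0.11 (adjusted p = 0.025, lost in 4 of the 10 leave-outs) and Tspan12 fell (−0.61 ± 0.11, adjusted p = 2.2e-04). Of 5 other galectin genes tested, Lgals1 averaged 43.5 ± 12.4 CPM in CCl4 and 15.8 ± 3.14 CPM in olive oil (1.44 ± 0.24, adjusted p = 0.0021), and 51.2 ± 11.6 CPM in PH day 3 and 12.7 ± 2.42 CPM in PH day 0 (2.05 ± 0.17, adjusted p = 6.2e-09). Lgals3bp, a galectin-3 binding protein, rose after CCl4 (0.82 ± 0.18, adjusted p = 0.0086, not called without olive oil replicate 3), and Lgals8 fell after surgery (−0.38 ± 0.09, adjusted p = 0.0041, not called with library-size scaling).

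The next counts stand beside 11.3% of all genes tested called higher and 11.6% lower after CCl4, and 9.73% and 8.01% after surgery. Of the other matrix metalloproteinases and their inhibitors, 8 were tested after CCl4, and 4 rose and none fell. They were Mmp14, a membrane-bound collagenase (1.85 ± 0.24, adjusted p = 8.2e-04), Timp1 (adjusted p = 0.0014), Timp2 (1.31 ± 0.29, adjusted p = 0.0091) and Mmp2, a gelatinase (1.62 ± 0.50, adjusted p = 0.041, lost in 4 of the 6 leave-outs). Timp1 averaged 5.76 ± 2.74 CPM in CCl4 and 0.0785 ± 0.136 CPM in olive oil, from 103 reads against 1. It passed the filter through the CCl4 livers alone, so it could only be called higher. After surgery 6 were tested and 2 rose, Mmp14 (0.84 ± 0.16, adjusted p = 5.0e-04) and Mmp19 (0.32 ± 0.10, adjusted p = 0.019, lost without day 0 replicate 13 or day 3 replicate 15). Of 14 genes for the uptake of dead cells and modified lipid, 3 rose after CCl4: Mfge8, a bridge between dead cells and phagocytes (2.19 ± 0.21, adjusted p = 1.1e-04), Stab1, a scavenger receptor (0.99 ± 0.16, adjusted p = 0.0017), and Msr1, the scavenger receptor A (0.98 ± 0.28, adjusted p = 0.031, lost in 5 of the 6 leave-outs). Nr1h3, given above, was the 1 that fell. After surgery 4 rose: Pros1 (0.60 ± 0.10, adjusted p = 1.3e-04) and Gas6 (0.83 ± 0.20, adjusted p = 0.014), the ligands of the TAM receptors, Abca1, a cholesterol exporter (0.33 ± 0.10, adjusted p = 0.027), and Mfge8 (0.82 ± 0.26, adjusted p = 0.035); the calls of Abca1 and Mfge8 were each lost in 6 of the 10 leave-outs. Of 9 macrophage growth factors and type 2 cytokines, 3 were tested after CCl4 and Il33 rose by 1.70 ± 0.41 (adjusted p = 0.014), not called when olive oil replicate 3 or CCl4 replicate 2 was left out. Csf1 had 0.30 ± 0.29 (adjusted p = 0.50).

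The genes with the profile most like that of Gpnmb over the 16 libraries were ranked by the root mean square distance between centred log2(CPM + 1) values, among 11867 genes. A gene with no variation would lie at 2.03. Mmp12 was the nearest of all, at 0.945. Ccr2 ranked 2 at 1.13, Id1, an inhibitor of helix-loop-helix factors, ranked 3 at 1.14, Lgals3 ranked 4 at 1.16, and Chil3, a chitinase-like protein of myeloid cells, ranked 5 at 1.19. Pclaf (1.19), Ncapg2 (1.20), Rad54l (1.21) and Clspn (1.24), which act in DNA replication, repair or chromosome condensation, and Abcd2 (1.24), a peroxisomal fatty acid transporter, completed the 8 nearest genes outside the list. Cd63 ranked 8 at 1.21 and Trem2 ranked 13 at 1.25, whereas Cd68 ranked 98, Tyrobp 364, Cd9 1470, Ctsd 1572 and Ctsb 5459. These ranks are descriptions over libraries that share the 3 CCl4 livers as their high points.

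The neighbours differed in how far they followed Gpnmb in the operated livers. Ncapg2 averaged 27.3 ± 7.98 CPM in CCl4, 1.21 ± 0.729 CPM in olive oil, 6.70 ± 2.5 CPM in PH day 3 and 1.65 ± 0.490 CPM in PH day 0. Id1 averaged 22.7 ± 11.4, 3.25 ± 1.55, 2.15 ± 0.699 and 2.36 ± 1.26 CPM in the same 4 groups. Chil3 averaged 22.3 ± 29.9 CPM in CCl4, between 4.92 and 56.9 CPM, and 0.145 ± 0.251 CPM in olive oil, with the highest value in CCl4 replicate 1.

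**Figure D5:**
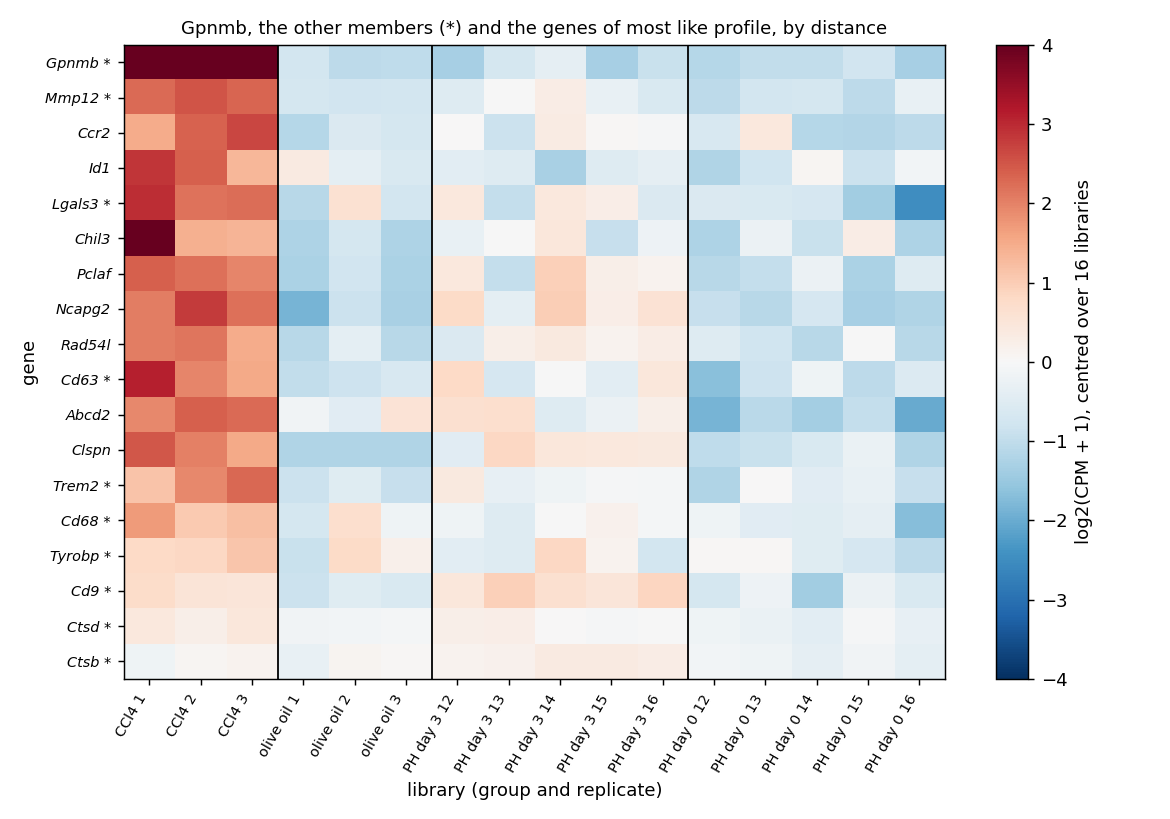
Heat map of log2(CPM + 1), centred on the mean over the 16 libraries, for Gpnmb, the other 9 listed genes (asterisks) and the 8 genes of most like profile, ordered by distance from Gpnmb, with colours saturating at 4 units either way. Mmp12 (0.945) lies next to Gpnmb and Ctsb (2.03) lies farthest, at the distance of a flat profile.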

How the data were processed

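Whole-liver mRNA libraries of 16 samples were analysed. The authors deposited raw read counts per gene, 1 file per sample. Per the file headers, featureCounts 1.6.2 counted reverse-stranded reads over exons of Ensembl 95 (GRCm38), with no option for multi-mapping or multi-overlapping reads; STAR 2.5.1 and Subread are named per the submitters' processing notes. Counts from genes with near-identical copies are uncertain. Symbols came from GENCODE M21 (Ensembl 96), matching 54723 of 54838 identifiers.

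Groups came from the labels. The 2 files of any replicate pair differed beyond sampling noise (chi-square per degree of freedom 5.51 to 72.3, using genes that reached 20 counts in a pair), and none was merged. The test was that of edgeR 4.0.16 in R 4.3.3 (robust quasi-likelihood F test, TMM factors, filterByExpr with minimum count 10 and minimum total 15), with separate fits for CCl4 against olive oil and PH day 3 against PH day 0 and a 4-group fit for the difference. Benjamini-Hochberg adjustment ran over all genes tested, and a call is an adjusted p under 0.05. A gene low in 1 group can pass the filter through the other group alone, and its call can then go only toward that group. Standard errors were taken as the size of the log2 fold change over the square root of F. CPM used TMM factors over all samples, TPM used the counts and the exon lengths of the files. Ratios of summed reads have exact 95% intervals that cover counting error only, as does the floor of 3 counts per library. Tested on simulated counts, the CCl4 fit called 2.99% of genes changed 1.5-fold, 29.2% changed 2-fold and 80.3% changed 4-fold. The PH fit called 38.8%, 80.3% and 96.9%. Of the simulated calls, 9 of 83 in the CCl4 fit and 13 of 155 in the PH fit were of unchanged genes. The simulation changed far fewer genes than were called in these livers, so its rates need not hold for them.

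The 10 genes and the 21 lists were chosen with earlier results of these data known. Genes named were all 10 members, defining markers and pathway genes fixed by name, and the 8 genes nearest to Gpnmb. In each list and comparison, up to 4 passing genes of smallest p were also named (all where 5 or fewer passed). Other genes were named because they rose in both experiments, or after their values were seen. Counts of calls in a list stand beside 11.3% of all genes called higher and 11.6% lower after CCl4. After surgery these shares were 9.73% and 8.01%. Some genes of the lists are not reported here by name. Gpnmb has no p-value, and none of the 10 has one in contrasts that include CCl4. Alternatives were DESeq2 1.42.0, RLE and library-size scaling, no filter, each library left out and, for PH, a replicate block.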

Additional observations from a re-analysis of the deposited data

Results flagged for a closer look

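For 8 genes of the other lists, the responses to CCl4 and to surgery differed in the fit of all 16 libraries. The call was an edgeR adjusted p under 0.05, and 5.33% of all 11868 genes tested were called. This contrast also sets one experiment against the other. Stab1 had a difference of 0.96 ± 0.20 on the log2 scale (adjusted p = 0.0046), with log2 fold changes of 0.99 after CCl4 and 0.06 after surgery, and passed under every alternative run. Npc1 had −0.75 ± 0.16 (adjusted p = 0.0072) and did not pass with library-size scaling (adjusted p = 0.19). Lgals3bp had 0.70 ± 0.18 (adjusted p = 0.020), not passing without olive oil replicate 3 (highest adjusted p 0.087). Ccr2 had 3.35 ± 0.92 (adjusted p = 0.033), not passing when olive oil replicate 1 or 3, CCl4 replicate 2 or 3, or PH day 0 replicate 13 was left out (difference 2.46 to 3.69). Mfge8 had 1.40 ± 0.38 (adjusted p = 0.034) and Mmp14 had 1.05 ± 0.30 (adjusted p = 0.045), and each lost the call in 11 of the 16 leave-outs (differences 1.15 to 1.61 and 0.80 to 1.19). Neu1, a sialidase, had −0.68 ± 0.19 (adjusted p = 0.038) and Cd300lb had 4.43 ± 1.30 (adjusted p = 0.046), and both lost the call in most leave-outs, with adjusted p up to 0.31 and 0.15. Ccr2 and Cd300lb did not reach the filter in the surgical fit and entered this fit through the CCl4 livers, where they were high. The filter therefore favoured a positive difference, and the values of Ccr2 and Cd300lb are descriptions. In 20 Dixon outlier tests of the 10 genes in the PH groups, no library passed the critical value of 0.71 for n = 5. The Cd68 level of PH day 0 replicate 16, 2.71 CPM against 7.73 to 9.86 CPM in the rest of its group, did not pass either. With so few libraries a lesser departure is not excluded.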

How the results depend on the processing

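Over the single genes named, 3486 of 3795 alternative values kept their side of the threshold, 235 lost the call, 74 gained it and none changed the sign of a call. The 7 other lipid-associated macrophage genes called after CCl4 became 13 with DESeq2, 14 with library-size scaling and 11 without the filter, which tests more genes of the list; the cause of the other changes was not tested. With single libraries left out, calls over all genes ran between 1492 and 3513 for CCl4 against olive oil (2599 with all libraries), between 1599 and 1810 for PH (1871) and between 384 and 931 for the difference (633). The lowest CCl4 count came without olive oil replicate 3, and counts of 1623 and 1629 came without CCl4 replicate 2 and olive oil replicate 1; the difference had 419 without CCl4 replicate 2 and 384 without olive oil replicate 3. Calls among the 10 genes, Gpnmb counted as a description, ran between 6 and 8 after CCl4 (7) and between 3 and 5 after surgery (4). Calls among the other lipid-associated macrophage genes ran between 5 and 10 (7) and between 7 and 8 (9), and among the other lysosomal genes between 2 and 18 (10) and between 6 and 8 (8).

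The PH replicate numbers were not taken as pairs, since the labels do not say that they mark shared mice: same-numbered livers had correlations of their deviations between −0.05 and 0.12, 1 of 5 over 0.1, and 3 of 5 were best matched by their own number. With the replicate number as a block, 1864 genes were called after surgery in place of 1871, with 4 of the 10 genes, 7 other lipid-associated macrophage genes and 8 other lysosomal genes. With the block Spp1 was called after surgery (adjusted p = 3.2e-05), and Col1a1 was not (adjusted p = 0.052). Depth limits the low genes: Gpnmb in the vehicle and operated livers lies at or under 3 reads per library.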

Other observations

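Sinusoidal and hepatocyte genes were measured in the same livers as the 10 genes. Of all genes tested, 11.3% were called higher and 11.6% lower after CCl4, and 9.73% and 8.01% after surgery. Of 7 endothelial markers tested after CCl4, Lyve1, a hyaluronan receptor, rose by 2.60 ± 0.65 on the log2 scale (edgeR adjusted p = 0.020), and was not called without olive oil replicate 1 or 2 (1.90 to 3.24). After surgery Kdr, the main VEGF receptor, fell (−0.84 ± 0.14, adjusted p = 1.2e-04), as did Clec4g, a lectin of sinusoidal endothelium (−0.62 ± 0.16, adjusted p = 0.0067). Of 6 hepatocyte markers none passed after CCl4 in edgeR, with 1 at an unadjusted p under 0.05 and 1 called by DESeq2, which fell. After surgery Alb (0.77 ± 0.11, adjusted p = 2.4e-05) and Trf, which encodes transferrin (0.55 ± 0.13, adjusted p = 0.0068), rose and Apoa1 fell (−0.41 ± 0.10, adjusted p = 0.0050). Pf4, a platelet chemokine also made by macrophages, averaged 3.55 ± 1.20 CPM in CCl4 and 0.788 ± 0.373 CPM in olive oil (2.14 ± 0.57, adjusted p = 0.022), and was not called in 5 of the 6 leave-outs. Cholangiocyte markers summed to 10.3 to 20.4 CPM in CCl4 and 3.30 to 9.03 CPM in olive oil.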
